A study of Arabidopsis thaliana with 21 samples.

Results

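The plasmodesmata-located proteins PDLP1 to PDLP8 of Arabidopsis thaliana were followed across 21 RNA-seq libraries of sorted root cells. The family was taken by name, and its 8 genes are among 33602 loci counted in every library. All 8 had counts, and all 8 were among the 26074 genes that passed the filter on low counts. The members took between 0.0198% and 0.0518% of the counts of a library.

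PDLPs are membrane proteins with a pair of cysteine-rich DUF26 domains outside the cell, a single membrane-spanning helix and a short cytoplasmic tail. They sit in the plasma membrane that lines plasmodesmata, the channels through the wall between plant cells. PDLP5, also called HWI1, is known to promote callose deposition at these channels and to act in salicylic acid signalling, and PDLP1 takes part in callose deposition during downy mildew infection. PDLP1, PDLP2 and PDLP3 serve as partners of tubule-forming viral movement proteins. PDLP6 has been described as acting on callose together with the sucrose synthase SUS6, and PDLP5 together with NHL3. In the root phloem, channels between sieve elements widen into sieve pores, while those to neighbouring cells carry the unloading stream.

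Cells were released from roots of seedlings grown for 5 days and sorted by fluorescence, so each group is the set of cells in which the reporter of 1 line glowed. The NAC57 group carried pNAC57::2GFP with pCALS7::H2B-RFP (3 libraries). The NAC73 group carried pNAC73::H2B-YFP with pS32::erRFP (4 libraries), and the CALS7 group carried pCASL7::H2B-YFP, as the labels spell it, with pS32::erRFP (4 libraries). The CVP2-DBOX group carried pCVP2::DBOX-3YFP (4 libraries), the PEAR1-DBOX group pPEAR1::DBOX-3xYFP (2 libraries) and the PEAR1 group pPEAR1::3xYFP (4 libraries). PEAR1 is a DOF transcription factor of early protophloem, CVP2 an inositol phosphatase of the same cells, CALS7 the callose synthase of sieve plates, and NAC57 and NAC73 transcription factors. No line carried a mutation by its labels, and each promoter was represented by 1 reporter line, so promoter, line, sorting gate and handling cannot be told apart. Material from many seedlings was pooled for a sort, and the labels do not say whether numbered libraries of a line came from separate sowings, so p-values measure the spread between these libraries.

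Library totals ran between 23513921 and 36198012 counts. Between 20416 and 22103 loci had a count in the libraries labelled NAC57, 16916 to 19644 in NAC73, 23756 to 27560 in CALS7, 25088 to 28134 in CVP2-DBOX, 22747 to 28322 in PEAR1-DBOX and 29449 to 30620 in PEAR1. All groups held sieve element markers, with a summed level of 13 markers of at least 1463 CPM in every library, where CPM are counts per 1000000 counts of the scaled library total. No line had less transcript of NAC057 (AT3G17730) than the one named after it, with 21.1 ± 9.62 CPM in its libraries against 679 ± 238 CPM in NAC73 (SD, n = 3 and 4). This goes against the label, and the group is therefore called the line labelled NAC57. CALS7 (AT1G06490) averaged 4204 ± 2214 CPM in NAC73, 3886 ± 566 CPM in CALS7 and 198 ± 45.5 CPM in PEAR1 (SD, n = 4 each). The line labelled NAC57, which carried pCALS7::H2B-RFP, had 174 ± 92.9 CPM of CALS7 transcript (SD, n = 3). CVP2 (AT1G05470) had its highest mean, 655 ± 53.4 CPM, in CVP2-DBOX (SD, n = 4). PEAR1 (AT2G37590) averaged 474 ± 33.9 CPM in CVP2-DBOX and 215 ± 40.5 CPM in the PEAR1 line (SD, n = 4 each).

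The 4 members on which the results turn are shown by the 250 bases that precede the annotated start of each gene, because PDLP2 and PDLP7 made up most of the family's transcript and PDLP3 and PDLP6 varied most alike across libraries. The bases were read from the RefSeq assembly TAIR10.1 on the strand of the gene, 5′ to 3′, with AAAG and its reverse complement CTTT, the core that DOF factors bind, in capitals. The windows are chr1:1231202-1231451 (plus strand) for PDLP2, chr5:14959364-14959613 (plus strand) for PDLP7, chr2:14125527-14125776 (minus strand) for PDLP3 and chr2:292689-292938 (minus strand) for PDLP6.
PDLP2: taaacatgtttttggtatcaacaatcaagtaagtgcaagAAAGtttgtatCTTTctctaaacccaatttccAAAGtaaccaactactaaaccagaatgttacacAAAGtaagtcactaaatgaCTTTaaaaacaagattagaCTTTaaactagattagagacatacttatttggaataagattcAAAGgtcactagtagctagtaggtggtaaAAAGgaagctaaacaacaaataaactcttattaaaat
PDLP7: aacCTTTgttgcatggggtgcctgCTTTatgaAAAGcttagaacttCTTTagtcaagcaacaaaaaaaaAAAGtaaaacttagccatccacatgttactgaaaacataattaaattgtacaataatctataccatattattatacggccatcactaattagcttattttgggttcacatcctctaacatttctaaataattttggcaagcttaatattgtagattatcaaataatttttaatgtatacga
PDLP3: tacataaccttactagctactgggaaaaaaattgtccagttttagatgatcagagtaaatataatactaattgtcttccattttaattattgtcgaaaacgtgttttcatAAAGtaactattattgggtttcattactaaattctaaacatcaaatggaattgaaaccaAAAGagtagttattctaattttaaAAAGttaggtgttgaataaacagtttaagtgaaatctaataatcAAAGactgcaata
PDLP6: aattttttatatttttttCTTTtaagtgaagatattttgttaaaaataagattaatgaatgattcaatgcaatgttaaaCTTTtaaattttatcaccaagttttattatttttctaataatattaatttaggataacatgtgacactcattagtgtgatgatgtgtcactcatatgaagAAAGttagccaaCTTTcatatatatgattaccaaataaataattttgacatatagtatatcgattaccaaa

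AAAG or CTTT was found 8 times before PDLP2, 5 times before PDLP7, 4 times before PDLP3 and 4 times before PDLP6. Of 33054 windows of the same length before all annotated starts, 97.9% held the motif on either strand, the median was 4 matches, and 7.02% held 8 or more. The W-box core TTGAC, bound by WRKY factors and also searched on both strands, was found 1 time before each of PDLP4, PDLP5, PDLP6 and PDLP7 and in none of the other 4 windows, and 44.2% of all windows held it. Matches of the 2 motifs may share bases. The window of PDLP3 lies within the annotated span of AT2G08570, an antisense non-coding gene that also overlaps PDLP3 and is not among the counted loci, so reads of the pair cannot be told apart unless counting used strand, which the sources used here do not state.

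The genes lie on 4 of the nuclear chromosomes of TAIR10.1. PDLP2 (AT1G04520) spans chr1:1231452-1234032 on the plus strand and PDLP5 (AT1G70690) chr1:26651840-26653643 on the plus strand. PDLP6 (AT2G01660) spans chr2:290573-292688 and PDLP3 (AT2G33330) chr2:14122806-14125526, both on the minus strand. PDLP4 (AT3G04370) spans chr3:1159409-1161338 and PDLP8 (AT3G60720) chr3:22441771-22443876, both on the plus strand. PDLP7 (AT5G37660) spans chr5:14959614-14961620 on the plus strand and PDLP1 (AT5G43980) chr5:17694680-17696690 on the minus strand. None of the 50-base words of any member's exons occurred elsewhere in the assembly, so reads of the family are not split between near-identical copies.

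PDLP2 and PDLP7 were the abundant members, and they divided the lines in different ways. PDLP2 averaged 218 to 232 CPM in the line labelled NAC57, NAC73, CALS7 and CVP2-DBOX and 104 CPM in both lines with the PEAR1 promoter. PDLP7 was lowest in CVP2-DBOX, where its mean was 11.7 times below its highest line mean. Among all genes tested, PDLP2 ranked 1073 and PDLP7 1790 by mean level, PDLP6 ranked 10136, PDLP3 14144, and the other 4 stood at 16927 or below.

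PDLP2 had 259.9, 210.2 and 227 CPM in the libraries labelled NAC57. In NAC73 it had 190.02, 272, 289.5 and 166 CPM, in CALS7 246, 212, 224 and 243 CPM, and in CVP2-DBOX 211, 224, 222 and 213 CPM. In PEAR1-DBOX it had 128 and 80.9 CPM, and in PEAR1 113, 105, 91.3 and 107 CPM. In CPM, the 2 lines with the PEAR1 promoter lay below every library of the other 4 lines, with no overlap. For NAC73 this depends on the scaling of totals, with factors of 0.503 to 0.786 in NAC73 and 1.18 to 1.36 in PEAR1. Before scaling, PDLP2 had 2479 of 23513921 counts in NAC73 4 and 3749 of 29861301 in PEAR1 4, a lower share in NAC73 4. Line means were 232 ± 25.3 CPM in the line labelled NAC57, 229 ± 60.7 in NAC73, 231 ± 16.1 in CALS7, 218 ± 6.34 in CVP2-DBOX, 104 ± 33.0 in PEAR1-DBOX and 104 ± 9.07 in PEAR1 (SD, n = 3, 4, 4, 4, 2 and 4). In that order of means, the only neighbours that differed were CVP2-DBOX and PEAR1-DBOX (adjusted p = 0.00257, edgeR).

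PDLP7 had 67, 134 and 159 CPM in the libraries labelled NAC57. It had 175, 236, 206 and 190.3 CPM in NAC73, 107, 134, 95 and 86.6 CPM in CALS7, and 11.4, 23.7, 14.4 and 19.4 CPM in CVP2-DBOX. In PEAR1-DBOX the 2 libraries had 35.2 and 151 CPM, and in PEAR1 the values were 185, 191, 217 and 182 CPM. Every CVP2-DBOX library lay below every library of the other lines, and the 2 PEAR1-DBOX libraries stood far apart. Means were 120.01 ± 47.7 CPM in the line labelled NAC57, 202 ± 26.1 in NAC73, 106 ± 20.6 in CALS7, 17.2 ± 5.46 in CVP2-DBOX, 92.9 ± 81.6 in PEAR1-DBOX and 194 ± 16.2 in PEAR1 (SD, n = 3, 4, 4, 4, 2 and 4). In the order of means, the only neighbours that differed were CVP2-DBOX and PEAR1-DBOX, the last pair (adjusted p = 0.000377, edgeR).

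PDLP6 was at or near 0 in 2 of the lines and highest in PEAR1. It had 6.45, 26.3 and 29.3 CPM in the libraries labelled NAC57, 0, 1.38, 0.493 and 0 CPM in NAC73, and 0.699, 0.627, 0 and 0.0294 CPM in CALS7. It had 5.93, 5.72, 4.73 and 6.19 CPM in CVP2-DBOX, 7.0 and 19.4 CPM in PEAR1-DBOX, and 34.6, 48.1, 51.4 and 48.3 CPM in PEAR1. No library of another line reached the PEAR1 libraries, and NAC73 and CALS7 lay below all others. The line means spanned 135-fold, with 0.339 ± 0.376 CPM in CALS7 and 45.6 ± 7.46 CPM in PEAR1 (SD, n = 4 each). Of neighbours in the order of means, PDLP6 differed between NAC73 and CVP2-DBOX alone (adjusted p = 0.00686, edgeR).

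PDLP3 was also highest in PEAR1 and lowest in NAC73 and CALS7, at lower levels. It had 2.04, 2.78 and 3.28 CPM in the libraries labelled NAC57, 1.18, 0.801, 0.247 and 0 CPM in NAC73, and 0.826, 1.59, 0.813 and 0.0883 CPM in CALS7. It had 2.19, 3.29, 3.21 and 2.76 CPM in CVP2-DBOX, 3.02 and 5.39 CPM in PEAR1-DBOX, and 14.9, 14.3, 14.1 and 13.2 CPM in PEAR1. The 4 PEAR1 libraries lay above all others, and the NAC73 and CALS7 libraries below all others. No neighbours in its order of line means could be told apart, the closest being the line labelled NAC57 over CALS7 (adjusted p = 0.0718, edgeR).

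PDLP8 reached at most 1.80 CPM, its value in NAC73 1, in the libraries of the other 5 lines, and had 5.97, 4.70, 4.94 and 3.22 CPM in PEAR1. Its means were 0.649 ± 0.472 CPM in the line labelled NAC57, 0.840 ± 0.706 in NAC73, 0.147 ± 0.0974 in CALS7, 0.383 ± 0.594 in CVP2-DBOX, 0.337 ± 0.477 in PEAR1-DBOX and 4.71 ± 1.14 in PEAR1 (SD, n = 3, 4, 4, 4, 2 and 4). PDLP8 was thus low in 5 lines, and again no neighbours in its order could be told apart.

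The other 3 members were low throughout. PDLP1 had its highest values, 4.64 and 3.96 CPM, in PEAR1-DBOX, was listed at 0 in 3 of the 4 NAC73 libraries and had 1.61 CPM in the other. PDLP5 had 11.5 and 1.64 CPM in PEAR1-DBOX and 2.74, 1.01, 1.09 and 1.68 CPM in PEAR1. Its highest value in the remaining lines was 1.71 CPM, in CALS7 4. PDLP4 was close to undetected in most libraries: it had 1.24 and 0.616 CPM in NAC73 2 and 3, from 17 and 10 counts, 0.954 CPM in PEAR1-DBOX 3, from 36 counts, and no count in any library of CALS7 or of the line labelled NAC57. A count of 0 allows a PDLP4 level of up to 0.0302 CPM over the libraries labelled NAC57 and 0.0242 CPM over those of CALS7, taking 3 counts as the limit, which covers counting error only.

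**Figure D1:**
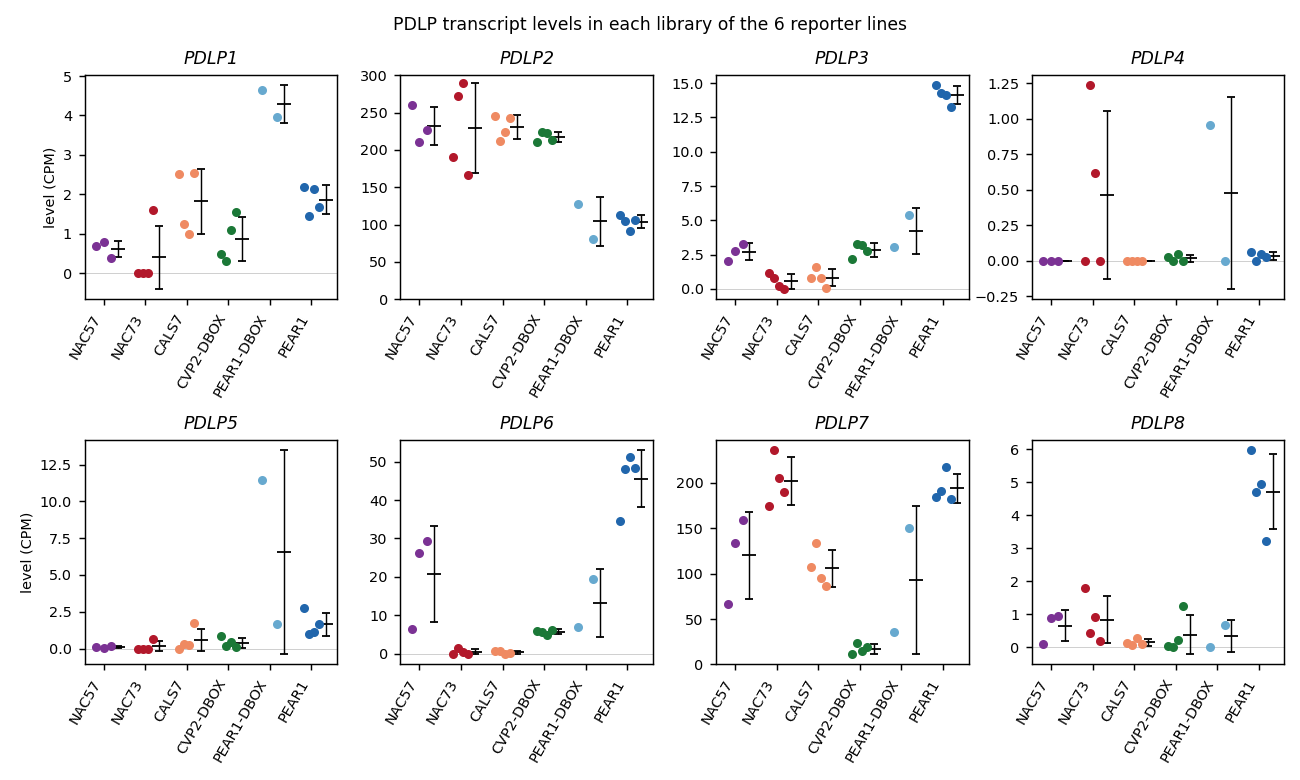
Levels of the 8 PDLP genes in CPM (y axis) in each library of the 6 lines (x axis); each point is a library, and the horizontal tick and bar beside the points are the line's mean and SD. PDLP3, PDLP6 and PDLP8 are highest in the 4 PEAR1 libraries, PDLP2 is lowest in the 2 lines with the PEAR1 promoter, and PDLP7 is lowest in CVP2-DBOX.

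To compare the genes with each other, levels were divided by the mean spliced transcript length. On that scale the 8 genes together gave 252 ± 31.2 CPM per kb in the line labelled NAC57, 298 ± 54.7 in NAC73, 228 ± 11.8 in CALS7, 158 ± 6.96 in CVP2-DBOX, 154 ± 40.2 in PEAR1-DBOX and 251 ± 9.07 in PEAR1 (SD, n = 3, 4, 4, 4, 2 and 4). The place of NAC73 depends on the scaling of totals, with factors of 0.503 to 0.786 in NAC73 and 1.18 to 1.36 in PEAR1. Of unscaled counts, the members took 0.0228% to 0.0289% in NAC73, 0.0313% to 0.0374% in CALS7 and 0.0419% to 0.0518% in PEAR1. PDLP2 made up 87.9% of the family level in CVP2-DBOX on average, with 86.0% to 90.4% in its libraries, and 26.4% in PEAR1, with 22.0% to 29.3%. PDLP7 made up 8.10% in CVP2-DBOX and 57.2% in PEAR1. In between, PDLP2 held 58.7% in the line labelled NAC57, 49.1% in NAC73, 64.5% in CALS7 and 43.1% in PEAR1-DBOX, and PDLP7 held 35.3%, 50.2%, 34.3% and 44.6% in the same 4 lines. The 2 PEAR1-DBOX libraries were unlike in this too, with PDLP2 at 64.6% and 28.2%. PDLP6 held 4.99% in the line labelled NAC57, 0.0957% in NAC73, 0.0902% in CALS7, 2.17% in CVP2-DBOX, 5.20% in PEAR1-DBOX and 11.0% in PEAR1.

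**Figure D2:**
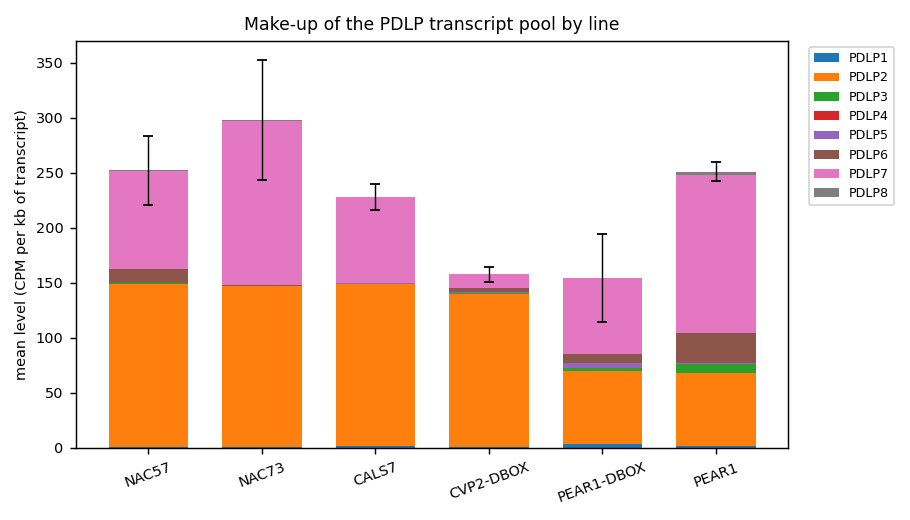
Mean level of each PDLP gene in CPM per kb of transcript (y axis), stacked by line (x axis), with the SD of the family's sum over libraries as the bar at the top of each stack. The stack is almost all PDLP2 in CVP2-DBOX, where PDLP2 averages 87.9%, and is mostly PDLP7 in PEAR1, where PDLP7 averages 57.2%.

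The lines were compared in 8 pairs in a single edgeR quasi-likelihood model of all 21 libraries, with p-values adjusted over all 26074 genes by Benjamini-Hochberg and 0.05 as the threshold. Changes are log2 with their standard errors. In sorted bulk samples, fewer cells of a type and less RNA per cell cannot be told apart. Asked for any difference among the 6 lines, 7 of the 8 members passed, the exception being PDLP1 (adjusted p = 0.122), beside 74.4% of all genes. The comparisons share libraries with each other, so their results are not independent.

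In CVP2-DBOX against PEAR1, PDLP2 rose and PDLP7, PDLP6, PDLP3 and PDLP8 fell. PDLP2 was 2.09-fold higher, a change of 1.07 ± 0.17 (adjusted p = 0.000134). PDLP7, the other abundant member, was 11.2-fold lower, at -3.49 ± 0.37 (adjusted p = 2.47e-06). PDLP6 changed by -3.01 ± 0.94 (adjusted p = 0.0227), PDLP3 by -2.30 ± 0.74 (adjusted p = 0.0254) and PDLP8 by -3.60 ± 1.25 (adjusted p = 0.0378), all from edgeR. So 5 of 8 members passed, 1 higher and 4 lower, where 27.4% of all genes passed, 12.2% higher and 15.2% lower. The median change of the members was -2.16, and that of all genes -0.20. The calls of PDLP3, PDLP6 and PDLP8 each failed when single libraries were left out: all 3 without CVP2-DBOX 1, 2 or 3 or without PEAR1 3, PDLP3 and PDLP6 without CVP2-DBOX 4, PDLP3 and PDLP8 without PEAR1 2, and PDLP8 without PEAR1 1 or 4. Over all 15 alternative fits of this comparison, passing or not, PDLP3 stayed between -2.43 and -2.14 and PDLP6 between -3.15 and -2.74. PDLP8 ranged from -5.63 to -3.19 over the same fits.

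In CALS7 against PEAR1, the same 5 members passed, PDLP2 higher and the other 4 lower, beside 37.9% of all genes, 14.7% higher and 23.1% lower. PDLP6 was 137-fold lower, at -7.10 ± 1.16 (adjusted p = 0.000124), and PDLP3 was 17.1-fold lower, at -4.09 ± 0.80 (adjusted p = 0.000588). PDLP8 was 30.8-fold lower, at -4.95 ± 1.34 (adjusted p = 0.00711). PDLP2 was 2.22-fold higher, at 1.15 ± 0.17 (adjusted p = 3.72e-05), and PDLP7 was 1.83-fold lower, at -0.87 ± 0.34 (adjusted p = 0.0474), all by edgeR. The call on PDLP7 did not pass with DESeq2, with median-ratio scaling, without the filter, or without any single CALS7 or PEAR1 library other than CALS7 2. The members' median was -2.38, against -0.32 for all genes.

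Lists of stress genes and of other cell types were read in the same 2 comparisons in which PDLP3, PDLP6 and PDLP8 fell. The calls in these lists stand beside 23.1% of all genes lower and 14.7% higher in CALS7 against PEAR1. In CVP2-DBOX against PEAR1 the shares were 15.2% lower and 12.2% higher. The 8 wounding and stress genes summed to 89.4 to 184 CPM in CALS7 libraries and 44.4 to 145 CPM in CVP2-DBOX, against 733 to 839 CPM in PEAR1, and 6 of the 8 were called lower in each comparison. In PEAR1-DBOX, the stress sum was 852 to 975 CPM. PDLP3, PDLP6 and PDLP8 averaged 4.21 ± 1.68, 13.2 ± 8.77 and 0.337 ± 0.477 CPM in that line (SD, n = 2). None of these members passed against PEAR1 in the model of all lines. The list of 9 xylem markers summed to 14.9 to 45.8 CPM in CALS7 and 6.68 to 12.7 CPM in CVP2-DBOX, against 21 to 163 CPM in PEAR1, with 1 gene called lower in CALS7 and 4 in CVP2-DBOX. The companion cell list of 8 genes summed to 999 to 1414 CPM in CALS7 and 88.1 to 128 CPM in CVP2-DBOX, against 162 to 276 CPM in PEAR1. Of that list, 1 gene was higher, 3 were lower and 4 did not pass in CALS7 against PEAR1, and 3 were lower and 5 did not pass in CVP2-DBOX against PEAR1. The gene that rose was AHA3, and the 3 that fell in each comparison were SUC2, SWEET11 and SWEET12. SUC2, a sucrose loader, averaged 1.87 ± 1.62 CPM in CALS7 and 0.835 ± 0.795 in CVP2-DBOX, against 29.2 ± 2.59 in PEAR1 (SD, n = 4 each). SWEET12, a sucrose exporter of phloem parenchyma, averaged 0.102 ± 0.167 CPM in CALS7 and 0.344 ± 0.371 in CVP2-DBOX, against 51.7 ± 28.3 in PEAR1 (SD, n = 4 each). Endodermis markers, 8 genes, summed to 4.56 to 20.1 CPM in CALS7 and 3.51 to 6.34 CPM in CVP2-DBOX, against 8.61 to 51.2 CPM in PEAR1. The 8 epidermis and root hair markers summed to 1.94 to 223 CPM in CALS7, 2.35 to 8.58 CPM in CVP2-DBOX and 6.89 to 75.4 CPM in PEAR1, and the 3 root cap markers to 12.3 to 50.4, 1.57 to 8.82 and 5.37 to 12.9 CPM in the same lines. Of these 3 lists, no gene was called by edgeR in CALS7 against PEAR1, where CASP2 of the endodermis was the only 1 with an unadjusted p under 0.05, and 1 endodermis and 4 epidermis genes were called lower in CVP2-DBOX against PEAR1. The part of these genes in the changes of PDLP3, PDLP6 and PDLP8 was not tested.

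In PEAR1-DBOX against PEAR1, none of the 8 members passed, where 2.29% of all genes did by edgeR, 1.40% higher and 0.886% lower. At an unadjusted p under 0.05 there were 2, PDLP7 and PDLP8, and DESeq2 called 1 member. PDLP8 was the member that DESeq2 called, and with only the 2 lines fitted PDLP3 passed at -1.80 (adjusted p = 0.0144) and PDLP6 at -1.84 (adjusted p = 0.035, edgeR). The 2.29% belongs to the adjusted p of the main fit. Shares of all genes at the unadjusted threshold, with DESeq2 or with only the 2 lines are not given here, so these counts have no background. PDLP7 changed by -1.06 ± 0.43 (adjusted p = 0.224), but by -2.46 (adjusted p = 0.00396) without PEAR1-DBOX 5. PDLP2 stood at 0.00 ± 0.21 (adjusted p = 0.995, edgeR), with 104 CPM in both lines. The 2 PEAR1-DBOX libraries differed widely in PDLP7, at 35.2 and 151 CPM.

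In CVP2-DBOX against PEAR1-DBOX, PDLP2 rose by 1.06 ± 0.22 (adjusted p = 0.00257) and PDLP7 fell by 2.43 on the log2 scale, with an SE of 0.39 (adjusted p = 0.000377, edgeR). These were 2 of 8 members, beside 12.0% of all genes, 3.87% higher and 8.14% lower. Both calls failed without PEAR1-DBOX 5, which leaves that line with 1 library assumed to vary like the others. PDLP5 had a change of -4.02 ± 1.44 (adjusted p = 0.0809, edgeR), with 11.5 CPM in 1 of the 2 PEAR1-DBOX libraries. It passed with DESeq2 (adjusted p = 0.0228), with voom (adjusted p = 0.0308) and with only the 2 lines in edgeR (adjusted p = 0.0281).

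In CALS7 against CVP2-DBOX, PDLP7 rose and PDLP6 fell. PDLP7 was 6.13-fold higher, at 2.62 ± 0.35 (adjusted p = 8.53e-06), and PDLP6 17.0-fold lower, at -4.08 ± 1.03 (adjusted p = 0.00361). PDLP2 stood at 0.09 ± 0.17 (adjusted p = 0.737) and PDLP3 at -1.79 ± 0.73 (adjusted p = 0.0602, edgeR). PDLP3 passed with DESeq2 (adjusted p = 0.0174), with voom (adjusted p = 0.00182) and without CALS7 2 in edgeR (adjusted p = 0.0313). The 2 calls among 8 members stand beside 40.6% of all genes, 16.9% higher and 23.7% lower, so the share of members called was below that of all genes. PDLP6 was at 5.64 ± 0.635 CPM in CVP2-DBOX, and no CALS7 library passed 0.699 CPM.

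In NAC73 against CALS7, PDLP7 was 1.91-fold higher, at 0.93 ± 0.34 (adjusted p = 0.0386, edgeR). PDLP4 was called higher as well (adjusted p = 0.0279, edgeR), from 27 counts in 2 of 4 NAC73 libraries against none in CALS7, at least 19.1-fold with 3 counts over the CALS7 libraries as the floor. These are 2 of 8 members, where 35.9% of all genes passed, 15.6% higher and 20.3% lower. PDLP7 did not pass with DESeq2, with median-ratio scaling, with only the 2 lines, with NAC73 1 and 4 only, or without CALS7 1, 3 or 4 or NAC73 2 or 3, and PDLP4 did not pass without CALS7 1, 3 or 4. Without NAC73 4, the only NAC73 library with PDLP1 or PDLP5 counts, PDLP1 and PDLP5 passed as lower in NAC73, and PDLP1 also passed with DESeq2 (adjusted p = 0.02) and with voom (adjusted p = 0.000347). The sieve element markers summed to 16517 and 25204 CPM in NAC73 1 and 4 and to 37473 and 31282 CPM in NAC73 2 and 3, and the part of that split in these calls was not tested.

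PDLP6 was the member that rose in the line labelled NAC57 against CALS7, 62.1-fold, at 5.96 ± 1.13 (adjusted p = 0.000527, edgeR), and 49.7% of all genes passed, 24.1% higher and 25.5% lower. PDLP2 stood at 0.01 ± 0.18 (adjusted p = 0.977) and PDLP7 at 0.18 ± 0.36 (adjusted p = 0.684). Against CVP2-DBOX, PDLP7 rose in the line labelled NAC57, 6.96-fold, at 2.80 ± 0.37 (adjusted p = 0.000106), beside 19.5% of all genes, 10.9% higher and 8.54% lower, and PDLP6 stood at 1.87 ± 0.94 (adjusted p = 0.168, edgeR). That change of PDLP6 passed with voom (adjusted p = 0.00442) and with only the 2 lines in edgeR (adjusted p = 0.00885). Of the companion cell list, 3 genes were higher, 2 lower and 3 did not pass in the line labelled NAC57 against CALS7, and 4 were higher against CVP2-DBOX. Its sum was 395 to 564 CPM in the line labelled NAC57, against 999 to 1414 CPM in CALS7 and 88.1 to 128 CPM in CVP2-DBOX. SUC2, SWEET11 and SWEET12 were the 3 higher than in CALS7, and AHA3 and PP2-A2 the 2 lower. SWEET11, a sucrose exporter like SWEET12, averaged 42.8 ± 34.7 CPM in the line labelled NAC57, against 0.348 ± 0.310 in CALS7 and 1.40 ± 1.75 in CVP2-DBOX (SD, n = 3, 4 and 4). The part of this list in the PDLP6 and PDLP7 changes was not tested.

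In CPM, which use the scaled totals, PDLP7 and the summed companion cell list shared their lowest line by mean, CVP2-DBOX, and their highest, NAC73. For PDLP7, NAC73 was not told apart from PEAR1 (202 against 194 CPM, adjusted p = 0.885, edgeR). Before scaling, PDLP7 had 3403 of 24784738 counts in NAC73 1 and 6382 of 29861301 in PEAR1 4. The list sums of CVP2-DBOX overlapped those of PEAR1-DBOX, and the sums of NAC73 overlapped those of CALS7. The order between was not shared: CALS7 had a higher list sum than PEAR1 and a lower PDLP7 level. The list summed to 395 to 564 CPM in the line labelled NAC57, 1192 to 2206 CPM in NAC73, 999 to 1414 CPM in CALS7, 88.1 to 128 CPM in CVP2-DBOX, 108 to 260 CPM in PEAR1-DBOX and 162 to 276 CPM in PEAR1. AHA3, a plasma membrane proton pump, gave most of that sum, with 1697 ± 475 CPM in NAC73 and 105 ± 14.2 CPM in CVP2-DBOX (SD, n = 4 each). SUC2 was near 0 in CVP2-DBOX, CALS7 and NAC73, PP2-A2 had no count in the line labelled NAC57, and SULTR2;1 had none in NAC73. The part of this list in the PDLP7 changes was not tested.

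**Figure D3:**
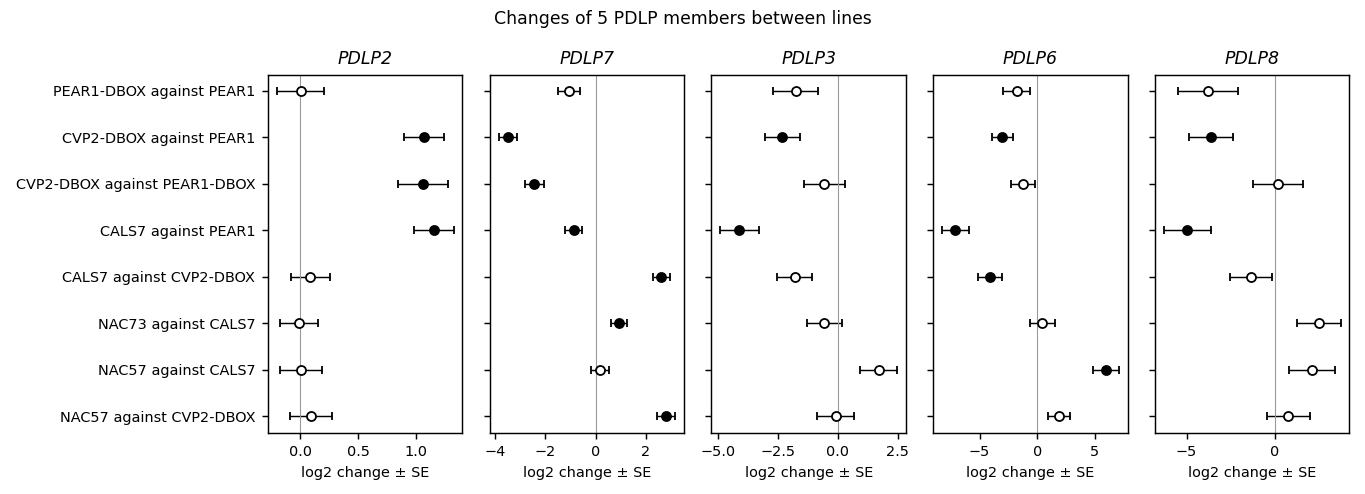
Log2 change (x axis) of 5 PDLP members in 8 comparisons of lines (y axis), each as first against second line; points are edgeR estimates with bars of 1 standard error, filled where the adjusted p was under 0.05. PDLP2 is higher against either PEAR1 promoter line, and PDLP7 is lower where CVP2-DBOX is the first line and higher where it is the second. PDLP6 is lower in CALS7 than in PEAR1, CVP2-DBOX and the line labelled NAC57, and CALS7 and NAC73 are not told apart.

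In the remaining 7 pairs of lines, for which single members were not compared across the alternative settings, PDLP6 and PDLP3 were low in NAC73. In NAC73 against CVP2-DBOX, PDLP6 was 12.4-fold lower (adjusted p = 0.00686), PDLP3 5.06-fold lower (adjusted p = 0.0151) and PDLP7 11.7-fold higher (adjusted p = 2.01e-07), and 56.6% of all genes passed by edgeR. In NAC73 against PEAR1, PDLP6 was 100.2-fold lower (adjusted p = 0.000126), PDLP3 24.9-fold lower (adjusted p = 0.000159), PDLP5 9.75-fold lower (adjusted p = 0.0446) and PDLP2 2.21-fold higher (adjusted p = 2.14e-05), beside 61.5% of all genes. In NAC73 against PEAR1-DBOX, 6 members passed, beside 51.3% of all genes, of which PDLP1, PDLP3, PDLP5 and PDLP6 were lower and PDLP2 and PDLP7 higher. PDLP6 was 29.0-fold lower (adjusted p = 0.00224) and PDLP5 39.1-fold lower (adjusted p = 0.00912, edgeR). The PEAR1-DBOX mean of PDLP5, 6.55 ± 6.94 CPM, rests on 1 library (SD, n = 2). In the line labelled NAC57 against NAC73, PDLP6 was 45.5-fold higher (adjusted p = 0.000784) and PDLP3 4.78-fold higher (adjusted p = 0.0325, edgeR), and 37.3% of all genes passed. PDLP4 was called lower there (adjusted p = 0.0426, edgeR), from no count against 27, at least 15.4-fold with 3 counts over the libraries as the floor. PDLP2 was higher in each pair that set another line against one with the PEAR1 promoter, which for NAC73 rests on the scaled totals. It was 2.23-fold higher in the line labelled NAC57 against PEAR1 (adjusted p = 0.000232), where PDLP3 was 5.22-fold lower (adjusted p = 0.034, edgeR) and 34.7% of all genes passed. PDLP2 was also 2.23-fold higher in the line labelled NAC57 against PEAR1-DBOX (adjusted p = 0.00198), where PDLP5 was 53.2-fold lower (adjusted p = 0.0296, edgeR) and 18.0% of all genes passed. In CALS7 against PEAR1-DBOX, PDLP2 was 2.22-fold higher (adjusted p = 0.000438), PDLP6 39.6-fold lower (adjusted p = 0.00144) and PDLP3 5.09-fold lower (adjusted p = 0.0356, edgeR), where 35.8% of all genes passed. PDLP4 was called lower there too (adjusted p = 0.0303, edgeR), at least 19.7-fold, from no count in CALS7 against 36 counts in 1 PEAR1-DBOX library.

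Across the 21 libraries, PDLP3 and PDLP6 were the most alike pair of members, with a Pearson r of log2 CPM of 0.865, followed by PDLP1 and PDLP5 at 0.725. PDLP2 ran opposite to PDLP5 (r = -0.704) and PDLP3 (r = -0.621), and the r of PDLP6 and PDLP7 was -0.0519. These values describe libraries that fall into 6 lines and share their line and depth, so they carry no p. Among 9789 genes compared, the closest to PDLP7 were ST4B (r = 0.981) and ANNAT2 (r = 0.954), and to PDLP2 PUX4 (r = 0.950) and RSW3 (r = 0.926). The closest to PDLP3 were OFP1 (r = 0.926) and LBD37 (r = 0.911), and to PDLP6 LecRK-I.9 (r = 0.903) and PSI-P (r = 0.897). The closest to PDLP8 was XIP1 (r = 0.840), to PDLP1 RR14 (r = 0.889), to PDLP5 BEL10 (r = 0.857) and to PDLP4 ZML2 (r = 0.806).

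The 31 other plasmodesmal genes were listed as callose synthases, β-1,3-glucanases, callose binding proteins, membrane tethers, receptors and partners, and genes of plasmodesma formation. They are set beside the members as a description. In CVP2-DBOX against PEAR1, 8 of them were higher, 4 lower and 19 did not pass. In CALS7 against CVP2-DBOX, 7 were higher, 14 lower and 10 did not pass, and in CALS7 against PEAR1 8 were higher, 8 lower and 15 did not pass. In PEAR1-DBOX against PEAR1, 2 were higher and 29 did not pass, and in CVP2-DBOX against PEAR1-DBOX 1 was higher, 2 were lower and 28 did not pass. In NAC73 against CALS7, 4 were higher, 8 lower and 19 did not pass. The line labelled NAC57 had 13 higher and 7 lower against CALS7, with 11 that did not pass, and 4 higher and 3 lower against CVP2-DBOX, with 24 that did not pass. Of all genes, 27.4%, 40.6% and 37.9% passed in the first 3 of these comparisons, in the order given. The share was 2.29% in PEAR1-DBOX against PEAR1, 12.0% in CVP2-DBOX against PEAR1-DBOX and 35.9% in NAC73 against CALS7. For the line labelled NAC57 it was 49.7% against CALS7 and 19.5% against CVP2-DBOX.

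Of the callose binding proteins PDCB1 to PDCB5, which hold callose at the neck of the channel, 4 fell in CALS7 against CVP2-DBOX and 1 did not pass, with a list median of -3.29, where 23.7% of all genes were lower. In CALS7 against PEAR1 the count was also 4 of 5, with a median of -1.91, where 23.1% of all genes were lower. PDCB5 averaged 3.18 ± 0.0931 CPM in CALS7, against 31.1 ± 1.21 in CVP2-DBOX, a change of -3.29 ± 0.24 (SD, n = 4 each, adjusted p = 5.07e-09, edgeR). In the line labelled NAC57 against CALS7, 4 of 5 rose, with a median of 2.60, where 24.1% of all genes were higher. In CALS7 against CVP2-DBOX, PDLP6 was lower and PDLP7 higher, as given above.

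SUS6 is a sucrose synthase of sieve elements. It averaged 13963 ± 4693 CPM in NAC73 and 3852 ± 1013 CPM in CALS7, against 16.7 ± 24.6 CPM in CVP2-DBOX (SD, n = 4 each). SUS6 rose by 7.85 ± 1.04 in CALS7 against CVP2-DBOX (adjusted p = 7.83e-06, edgeR), in which PDLP7 rose by 2.62 and PDLP6, the member described with SUS6, changed by -4.08. In CALS7 against PEAR1, SUS6 rose by 4.17 ± 0.87 (adjusted p = 0.00113, edgeR), where PDLP6 changed by -7.10 and PDLP7 by -0.87. In CVP2-DBOX against PEAR1, SUS6 changed by -3.68 ± 0.86 (adjusted p = 0.00352, edgeR), beside the -3.49 of PDLP7 and the -3.01 of PDLP6. In the line labelled NAC57 SUS6 averaged 8.40 ± 7.28 CPM (SD, n = 3), a change of -8.84 ± 1.24 against CALS7 (adjusted p = 3.37e-05, edgeR), while PDLP6 changed by 5.96 and PDLP7 stood at 0.18 in the same comparison.

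Callose synthases lay down callose and β-1,3-glucanases remove it. CALS3, the synthase known for controlling plasmodesmata of the root stele, averaged 216 ± 26.6 CPM in CVP2-DBOX and 91.4 ± 19.4 CPM in PEAR1, a change of 1.24 ± 0.33 (SD, n = 4 each, adjusted p = 0.0089, edgeR). PDBG3, a plasmodesmal glucanase, averaged 226 ± 32 CPM in CALS7 and 91.4 ± 14.2 CPM in PEAR1, a change of 1.31 ± 0.18 (SD, n = 4 each, adjusted p = 2.41e-05, edgeR). PDBG3 and PDCB5 were the 2 listed genes that rose in PEAR1-DBOX against PEAR1, by 1.18 ± 0.22 (adjusted p = 0.0077) and 1.67 ± 0.25 (adjusted p = 0.00249, edgeR). CHER1, a choline transporter needed for sieve pore formation, averaged 46.3 ± 3.51 CPM in CALS7, against 171 ± 20.4 in CVP2-DBOX (SD, n = 4 each, adjusted p = 0.000161, edgeR).

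Membrane tethers join the endoplasmic reticulum strand in the channel to the plasma membrane. SYT1, a synaptotagmin at such contacts, averaged 1981 ± 465 CPM in NAC73, 1104 ± 113 CPM in CALS7 and 409.8 ± 27.5 CPM in CVP2-DBOX (SD, n = 4 each). QKY, a membrane protein with C2 domains, averaged 77.3 ± 9.97 CPM in the line labelled NAC57 and 279 ± 17.3 CPM in CALS7 (SD, n = 3 and 4). RTNLB6, a reticulon-like protein of the endoplasmic reticulum, averaged 246 ± 16.3 CPM in CALS7, against 13.2 ± 3.24 CPM in CVP2-DBOX and 43.0 ± 5.82 CPM in PEAR1 (SD, n = 4 each). RTNLB6 in the CALS7 libraries lay above all libraries of CVP2-DBOX and PEAR1. PDLP7 in the CALS7 libraries lay above all libraries of CVP2-DBOX but below all libraries of PEAR1.

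**Figure D4:**
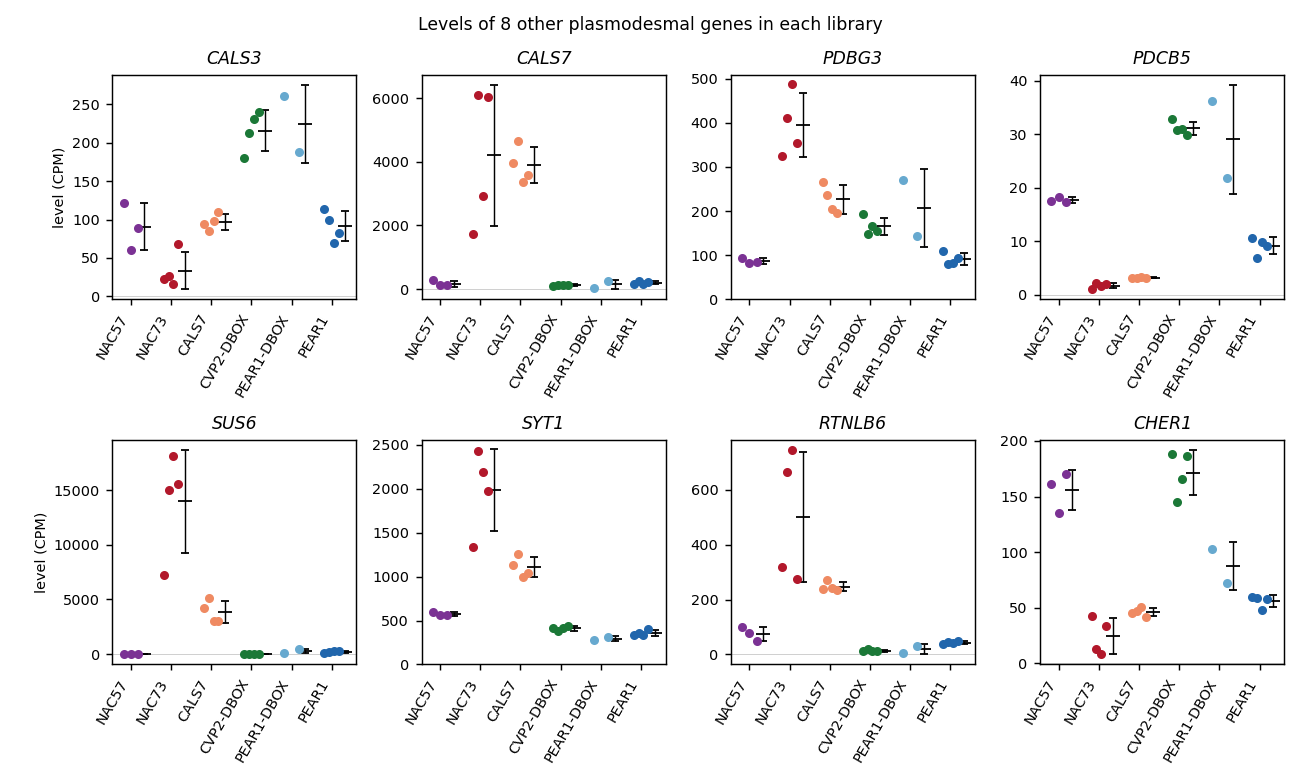
Levels of 8 other plasmodesmal genes in CPM (y axis) in each library of the 6 lines (x axis), with the line's mean and SD beside the points. SUS6 and CALS7 are high in NAC73 and CALS7, as is SYT1, while PDCB5 and CHER1 are low in both.

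Of 13 salicylic acid genes, 12 were tested. In CVP2-DBOX against PEAR1 5 fell and none rose, with a median of -1.14, where 15.2% of all genes were lower. In CALS7 against PEAR1 3 of the 12 fell, a share close to the 23.1% of all genes that were lower there. PAD4, a regulator of salicylic acid signalling, averaged 1.35 ± 0.517 CPM in CVP2-DBOX and 21.2 ± 1.87 CPM in PEAR1, a change of -3.97 ± 0.85 (SD, n = 4 each, adjusted p = 0.00184, edgeR). PDLP5, the member whose expression is known to follow salicylic acid, had 0.400 ± 0.336 CPM in CVP2-DBOX and 1.63 ± 0.798 CPM in PEAR1 (SD, n = 4 each) and did not pass in that comparison by edgeR over all lines (adjusted p = 0.259). It passed with voom (adjusted p = 0.0263) and with only the 2 lines in edgeR (adjusted p = 0.0203). The wounding and stress sums were also lower in CVP2-DBOX, 44.4 to 145 CPM against 733 to 839 CPM in PEAR1, and their part in the salicylic acid counts was not tested.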

How the data were processed

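RNA of sorted cells was amplified with the SMARTer ultra-low input kit in 18 PCR cycles and read as single-end 50-base reads, per the labels' protocols. Per the submitters' processing notes, Bowtie2, featureCounts and edgeR were used with TAIR10, with no versions given, and strand handling is not given in the sources used here. The deposited values are whole-number counts per locus, 1 file per library, not normalized. PCR duplicates without molecular identifiers are counted, so intervals and floors cover counting error only.

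From the counts, genes were filtered by expression (filterByExpr), scaled by TMM and tested by edgeR's quasi-likelihood test (edgeR 4.0.16, R 4.3.3) with 1 coefficient per line over all 21 libraries. CPM values use the TMM-scaled totals, correlations use log2 CPM with a prior count of 2, and lengths come from the RefSeq annotation of TAIR10.1, whose symbols and loci matched 32835 of 33602 counted loci. The scripts were tested on simulated data. Alternatives were DESeq2 1.42.0, limma 3.58.1 (voom with sample weights), median-ratio (RLE) scaling, no filter, a replicate block, only the lines compared, and leaving out libraries. The marker lists were sieve element, companion cell, xylem, endodermis, epidermis and root hair, root cap, and wounding and stress genes. Genes named beside the members were those with the smallest adjusted p of each pathway list in a comparison, at most 3 per list, and the 2 of highest Pearson r for each member. SUC2, SWEET11, SWEET12 and AHA3 were picked after their values were seen. PDLP members, lists and tests were chosen with earlier results of these data known. Listed genes whose symbol did not match the reference (CALS8, CALS10, CALS12 and the marker S32) were left out. No 2 libraries had equal counts at more than 2.93% of genes.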

Additional observations from a re-analysis of the deposited data

Results flagged for a closer look

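In NAC73, 1 of the 4 libraries stood apart in each of 2 members. PDLP1 had 1.61 CPM and PDLP5 0.669 CPM in NAC73 4, while the other 3 NAC73 libraries had no count of either gene. Of 31 groups scanned, 2 were marked, counting each of the 8 members in each line of 4 libraries in which it had a count. The nominal rate of about 1 in 20 groups of 4 libraries does not apply to these 2. A member with counts in only 1 library of a line is always marked, and both marks come from NAC73 4.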

How the results depend on the processing

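Across the alternatives, no called change of a member reversed in the 8 comparisons. The calls of PDLP2 and PDLP7 in CVP2-DBOX against PEAR1, of PDLP2, PDLP3, PDLP6 and PDLP8 in CALS7 against PEAR1, of PDLP6 and PDLP7 in CALS7 against CVP2-DBOX, of PDLP6 in the line labelled NAC57 against CALS7 and of PDLP7 in that line against CVP2-DBOX passed in every alternative run. The cause of the following moves was not tested. Shares of all genes called under each setting are not set beside these counts, so a moved count is not a result about the members alone. In NAC73 against CALS7, for example, RLE scaling called 3162 of all genes higher and 5951 lower, where TMM called 4077 and 5286. In NAC73 against CALS7 the count of 2 members became 1 with RLE scaling, 1 with the replicate block, 0 with only the 2 lines, 0 with NAC73 1 and 4 only and 4 with NAC73 2 and 3 only. In PEAR1-DBOX against PEAR1 the count of 0 became 1 with DESeq2, 1 with the block and 2 with only the 2 lines. In CVP2-DBOX against PEAR1-DBOX the count of 2 became 4 with voom and 0 with the block, under which PDLP2 and PDLP7 both failed to pass. The block also ended the call of PDLP4 in NAC73 against CALS7, and it called PDLP7 in PEAR1-DBOX against PEAR1, at -2.43 (adjusted p = 0.00459, edgeR). In the line labelled NAC57 the count of 1 became 3 against CALS7 with voom, and 2 against CVP2-DBOX with voom or with only the 2 lines. In CVP2-DBOX against PEAR1 the count of 5 became 2 with PEAR1 1 and 3 only. Of neighbours in the order of lines, 3 pairs differed, and 5 with DESeq2, 10 with voom and 8 with NAC73 2 and 3 only.

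Leaving out single libraries gave 0 to 1 members in PEAR1-DBOX against PEAR1, 2 to 4 in CVP2-DBOX against PEAR1, 0 to 2 in CVP2-DBOX against PEAR1-DBOX, 4 to 5 in CALS7 against PEAR1, 2 to 3 in CALS7 against CVP2-DBOX, 0 to 4 in NAC73 against CALS7, and 1 to 2 and 1 in the line labelled NAC57 against CALS7 and against CVP2-DBOX. It gave 6 to 8 members differing among the 6 lines and 2 to 6 neighbour pairs. Shares of all genes called in these runs are not set beside the counts either.

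Changes that reversed passed in no setting compared. In PEAR1-DBOX against PEAR1, PDLP2 stood at -0.11 with RLE or DESeq2, -0.011 with voom and -0.039 with only the 2 lines, and at -0.36 to 0.30 without single libraries, where PDLP4 ranged over -3.26 to 4.65. In CALS7 against PEAR1, PDLP1 stood at 0.082 with RLE, 0.083 with DESeq2, 0.058 with voom and 0.22 with only the 2 lines, and at -0.23 to 0.17 without single libraries. In the line labelled NAC57 against CALS7, PDLP2 stood at -0.42 with RLE or DESeq2, -0.046 with voom and -0.26 with only the 2 lines, and PDLP7 at -0.23 with RLE or DESeq2 and -0.085 with only the 2 lines. Without single libraries these ranged over -0.079 to 0.075 and -0.075 to 0.47. Against CVP2-DBOX, PDLP2 in that line stood at -0.088 with RLE and -0.089 with DESeq2, and PDLP3 ranged over -0.25 to 0.082 without single libraries. In NAC73 against CALS7, PDLP2 stood at 0.0046 without the filter, 0.10 with voom, 0.28 with NAC73 2 and 3 only and -0.14 to 0.12 without single libraries, and PDLP6 at -6.46 with NAC73 1 and 4 only and -1.01 to 1.16 without single libraries. In CALS7 against CVP2-DBOX, PDLP5 stood at -0.77 with voom, -0.22 with the block and -1.01 to 1.19 without single libraries, and PDLP8 at -1.89 to 0.69. In CVP2-DBOX against PEAR1-DBOX, PDLP8 ranged over -1.84 to 6.62 and PDLP4 over -5.39 to 2.53 without single libraries.

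RLE scaling moved the median of all genes by -0.41 in the line labelled NAC57 against CALS7, by -0.18 against CVP2-DBOX, by -0.11 in PEAR1-DBOX against PEAR1, by -0.13 in CVP2-DBOX against PEAR1, by 0.11 in CALS7 against PEAR1, by 0.24 in CALS7 against CVP2-DBOX and by -0.17 in NAC73 against CALS7. It turned the share of higher calls into 33.1%, against 48.6% with TMM, in the first of these, 40.5%, against 56.1%, in the second and 45.8%, against 61.3%, in the third. Replicate numbers do not pair libraries: over 40 pairs of same-numbered libraries of different lines the median correlation of deviations was -0.0269 and 3 were over 0.1. Depth limits PDLP4 most, with no more than 36 counts in any line.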
